A study of Homo sapiens with 12 samples.

Results

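Integrins are the transmembrane receptors through which cells hold on to the extracellular matrix. Each receptor pairs an alpha chain with a beta chain, and the pair sets the ligand: alpha5 with beta1 binds fibronectin, alpha3 or alpha6 with beta1 binds laminin, alpha6 with beta4 builds hemidesmosomes, alpha2 with beta1 binds collagen, and alphaV takes up vitronectin, fibronectin or latent TGF-beta with one of several beta chains. In prostate epithelium the laminin receptors anchor basal cells to the basement membrane. The 10 subunits described here, ITGA2, ITGA3, ITGA5, ITGA6, ITGAV, ITGB1, ITGB3, ITGB4, ITGB5 and ITGB6, were chosen by gene symbol, and each matched 1 of the 18950 genes of the deposited RNA sequencing table. They comprise 5 alpha and 5 beta chains. Of the 10 subunits, 9 reached the expression minimum of 1 CPM (read counts scaled for library size) in at least 3 libraries and were tested among 12527 genes, and ITGB6 did not.

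The study sorted 2 human prostate cancer cell lines, DU145 and PC3, by the brightness of green fluorescent protein, GFP. The labels give the top 10% of cells by GFP as active for Wnt/β-catenin signaling (GFP+) and the bottom 10% as inactive (GFP-), and all cells grew in DMEM with serum. The 12 libraries formed the groups DU145 GFP+, DU145 GFP-, PC3 GFP+ and PC3 GFP-, with 3 libraries each. Both sorts of a line carry the same reporter as far as the labels say, and the construct that drives GFP, or whether a line was 1 clone, is not stated there. Whether replicates are separate cultures or sorts is not stated either, and p-values therefore reflect the scatter of these libraries alone, which may be technical. RNA came from pooled cells, so fewer expressing cells and less RNA per cell cannot be told apart.

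Total estimated counts ran from 13453614 to 21528810 per library. DU145 GFP+ replicate 3 stood apart from its group, differing from replicates 1 and 2 by 27.0 and 21.0 times the variance that sampling alone gives, against 5.96 times between replicates 1 and 2. PC3 GFP- replicate 2 differed from replicates 1 and 3 by 21.4 and 41.9 times. Some marker genes went against the cell names. EPCAM and KRT19, which epithelial cells express, had at most 6 estimated counts over the 3 libraries of any group, while the keratin KRT18 averaged 1375 CPM in DU145 GFP+, 1956 CPM in DU145 GFP-, 369 CPM in PC3 GFP+ and 409 CPM in PC3 GFP- libraries. PC3 is known for a deletion of CTNNA1, yet the libraries labelled PC3 held CTNNA1 at 387 ± 17.0 CPM in GFP+ and 408 ± 10.2 CPM in GFP- libraries (SD, n = 3 each). DU145 and PC3 therefore stand here for the names on the labels. Exons of ITGA5, ITGA6, ITGAV and ITGB1 overlap those of genes on the opposite strand in GENCODE 29, and exons of ITGB3 and ITGB6 those of a gene on the same strand, so reads of these partners cannot be told apart where counting ignored strand or exon sharing. Marker genes of leukocytes, platelets, fibroblasts and endothelium summed to at most 6.16 CPM per list in any library, and the defining leukocyte gene PTPRC had 0 to 2 counts per group.

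RefSeq promoter windows on GRCh38.p14 were found for 7 of the 10 subunits, with 12 start sites among them. Each window ran from 250 bases before to 30 bases after the start, 280 bases in all. They were searched on both strands for TCF/LEF motifs (CTTTG followed by 2 letters that are each A or T), which the transcription factors of the β-catenin pathway bind, for the AP-1 motif TGANTCA and for the GC box GGGCGG. TCF/LEF letters occurred in 13.1% of all 35116 RefSeq windows of this length, AP-1 letters in 7.35% and GC boxes in 44.1%. Of the 12 integrin windows, 1 held TCF/LEF letters (the second start of ITGAV, with 2 matches) and 1 held AP-1 letters (ITGA5). GC boxes were present at the starts of ITGA2 and ITGA5, the second start of ITGA6, the first start of ITGB1 and each start of ITGB5. The windows of ITGA5, ITGAV and ITGB1 are printed because these 3 genes differed between GFP sorts and show the 3 motif types. Capitals mark the motif matches, on either strand.
ITGA5, chr12:54419237-54419516, minus strand: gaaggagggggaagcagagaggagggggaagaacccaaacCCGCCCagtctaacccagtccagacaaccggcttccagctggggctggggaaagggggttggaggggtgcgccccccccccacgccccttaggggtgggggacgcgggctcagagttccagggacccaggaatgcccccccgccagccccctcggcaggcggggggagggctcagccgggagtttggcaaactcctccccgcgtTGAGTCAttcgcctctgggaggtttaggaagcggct
ITGAV second start, chr2:186599955-186600234, plus strand: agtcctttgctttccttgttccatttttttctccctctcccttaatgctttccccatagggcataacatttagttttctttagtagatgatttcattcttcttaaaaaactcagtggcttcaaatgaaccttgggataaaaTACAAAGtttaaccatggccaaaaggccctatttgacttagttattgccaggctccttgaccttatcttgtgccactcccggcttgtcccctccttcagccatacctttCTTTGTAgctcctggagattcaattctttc
ITGB1, chr10:32958201-32958480, minus strand: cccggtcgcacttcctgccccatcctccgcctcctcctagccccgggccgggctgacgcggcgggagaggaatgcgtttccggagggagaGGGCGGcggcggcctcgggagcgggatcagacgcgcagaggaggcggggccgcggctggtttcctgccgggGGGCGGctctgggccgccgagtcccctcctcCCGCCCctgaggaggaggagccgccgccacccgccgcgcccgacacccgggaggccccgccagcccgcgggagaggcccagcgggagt
The ITGA5 window has 1 AP-1 match close to its start and 1 GC box, and the ITGAV window has 2 TCF/LEF matches and no GC box. The printed ITGB1 window is that of its first start and has 3 GC boxes, while its second start has 0. The matches describe these letters only, and binding there was not tested.

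In all 4 groups the same pair of chains led. Levels between genes are compared as CPM per kb of the longest annotated transcript. ITGB1, the beta chain that most alpha chains share, averaged 140 CPM per kb in DU145 GFP+, 99.6 in DU145 GFP-, 127 in PC3 GFP+ and 128 in PC3 GFP- libraries. ITGA3, the laminin-332 receptor chain, averaged 125 CPM per kb in DU145 GFP+, 109 in DU145 GFP-, 105 in PC3 GFP+ and 154 in PC3 GFP- libraries. ITGB5, a partner of alphaV in binding vitronectin, had 47.3 to 71.0 CPM per kb over the 4 groups. ITGA6 (14.5 to 55.4 CPM per kb) lay below ITGB5 except in DU145 GFP+ libraries, where ITGA6 averaged 55.4 and ITGB5 53.9. ITGA5 (10.3 to 40.2) and ITGAV (5.12 to 11.9) lay below ITGB5 in all 4 groups. The group means of ITGA2, ITGB3 and ITGB4 lay between 0.154 and 3.13 CPM per kb. ITGB6, which with alphaV activates latent TGF-beta, was at or near the detection limit. It had 0, 1 and 5 estimated counts in DU145 GFP+, 0, 3 and 12 in DU145 GFP-, 9, 2 and 9 in PC3 GFP+ and 2, 1 and 2 in PC3 GFP- libraries. Its groups overlapped in every neighbouring pair, and a count of 0 allows up to 0.130 to 0.233 CPM at these depths (3 counts, counting error only).

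**Figure D1:**
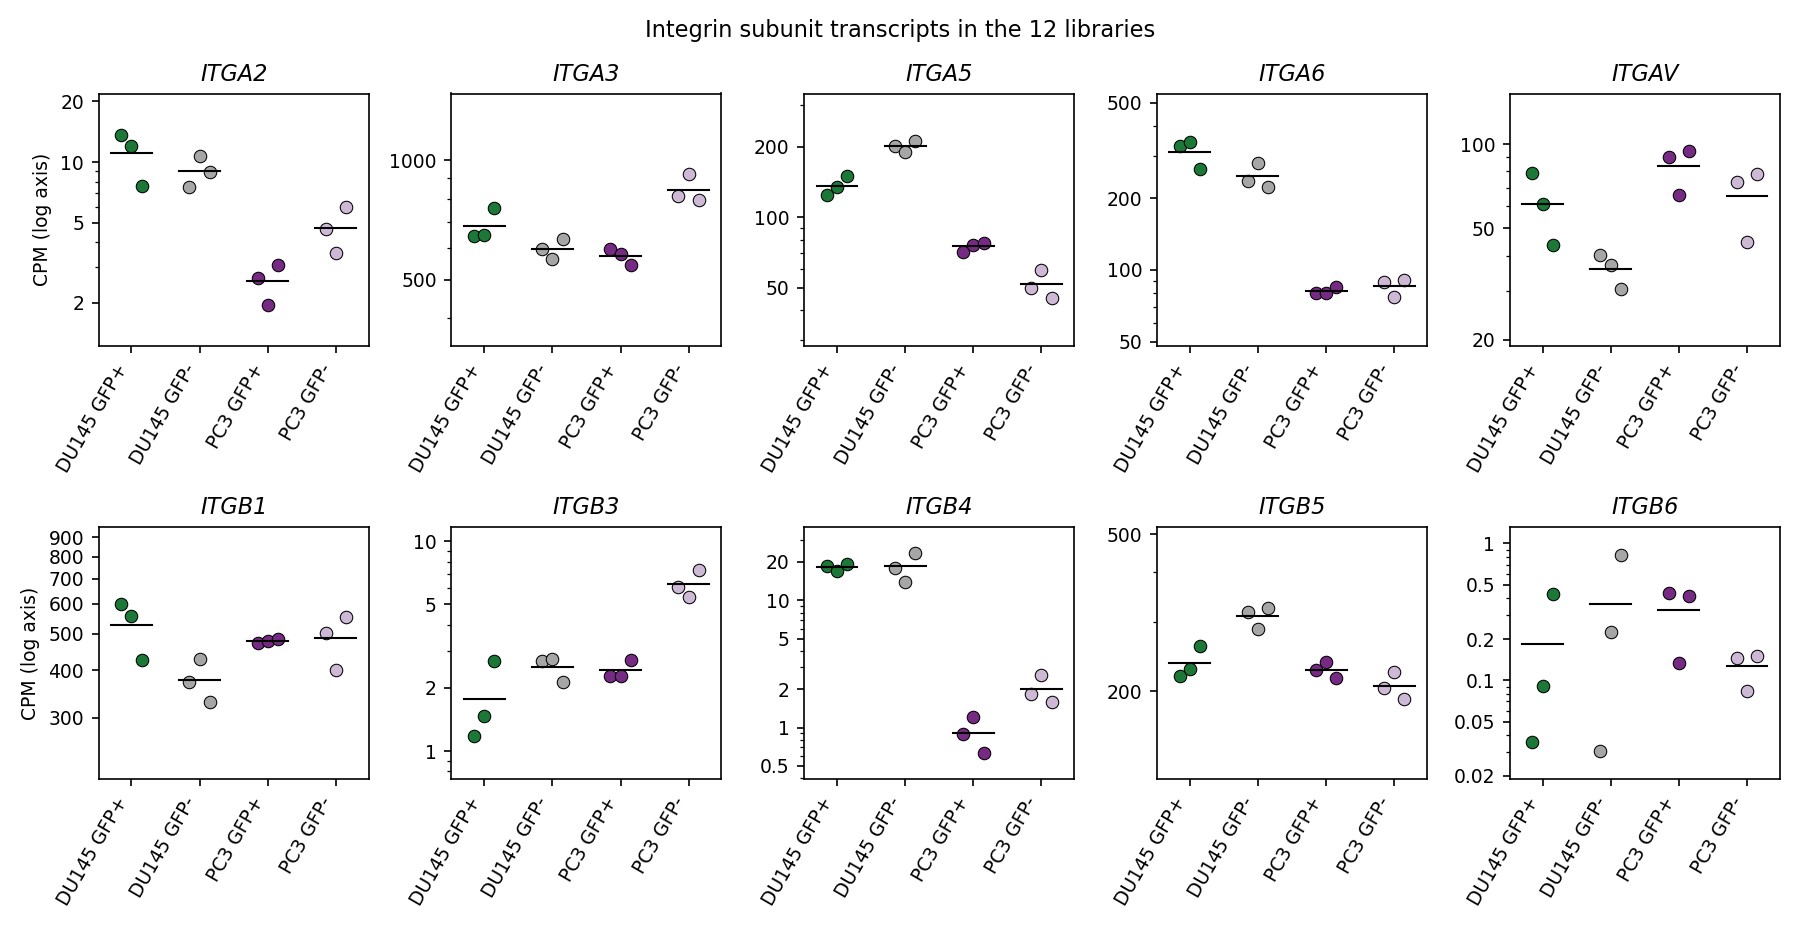
Level of each integrin subunit in the 12 libraries, in CPM on a log axis, with replicates 1 to 3 from left to right in each group and the group mean as a line. ITGA5 sits lower in DU145 GFP+ (124 to 150 CPM) than in DU145 GFP- (190 to 211 CPM) and higher in PC3 GFP+ (71.0 to 77.7 CPM) than in PC3 GFP- (45.2 to 59.6 CPM).

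In DU145, the GFP+ cells held less RNA for the fibronectin receptor chain ITGA5 and for ITGB5, and more for ITGAV, ITGB1 and ITGA6. These were 5 of the 9 subunits tested, 3 higher and 2 lower (limma, Benjamini-Hochberg adjusted p under 0.05). Of all genes tested, 27.1% passed in this comparison, 13.1% higher and 13.9% lower. The libraries of the sorts did not overlap for 4 of the 9 subunits, against 40.5% of all genes.

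ITGA5 (ENSG00000161638, GRCh38 chromosome 12, 54395261 to 54419460, minus strand), the alpha chain of the classical fibronectin receptor, stood at 124, 134 and 150 CPM in DU145 GFP+ libraries, against 201, 190 and 211 CPM in DU145 GFP- libraries. All GFP+ libraries lay below all GFP- libraries. The log2 fold change was -0.56 ± 0.10 (SE), a fold of 0.676, with a limma adjusted p of 0.00346. ITGB5 (ENSG00000082781, chromosome 3, 124761948 to 124901418, minus strand) stood at 219, 227 and 261 CPM in GFP+ libraries, against 317, 288 and 326 CPM in GFP- libraries. Again the groups did not overlap, and the log2 fold change was -0.40 ± 0.08 (limma adjusted p = 0.00777). In both genes GFP+ replicate 3 was the GFP+ library nearest to the GFP- group. Both calls held in 26 of 27 alternative settings and were lost without both GFP+ replicates 1 and 2, which leaves replicate 3 alone (adjusted p = 0.211 for ITGA5 and 0.381 for ITGB5).

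ITGAV (ENSG00000138448, chromosome 2, 186590065 to 186680901, plus strand), the alpha chain of the vitronectin receptors, had 78.7, 61.0 and 43.6 CPM in DU145 GFP+ libraries, against 40.2, 37.2 and 30.5 CPM in DU145 GFP- libraries. The groups did not overlap, although GFP+ replicate 3 was only just above the highest GFP- library. Its log2 fold change was 0.73 ± 0.23 (limma adjusted p = 0.0350), and 0.96 without GFP+ replicate 3. The call was lost without GFP+ replicate 1 (adjusted p = 0.161) or 2 (0.105) and without GFP- replicate 1 (0.0667), 2 (0.0549) or 3 (0.137), as well as after quantile normalization (0.0511) and by eBayes without trend (0.0721). ITGB1 (ENSG00000150093, chromosome 10, 32900319 to 33005792, minus strand) had 599, 559 and 427 CPM in GFP+ libraries, against 373, 428 and 330 CPM in GFP- libraries. GFP+ replicate 3 and GFP- replicate 2 met at nearly the same level, so the groups overlapped. The log2 fold change of ITGB1 was 0.48 ± 0.14 (limma adjusted p = 0.0239), and 0.63 without GFP+ replicate 3. This call was lost without GFP+ replicate 1 (0.114) or 2 (0.0925) and without GFP- replicate 1 (0.0727) or 3 (0.110), as well as by eBayes without trend (0.0556). ITGB1 counts were fractional in all 12 libraries, so its reads may be split with another gene and its values are less certain.

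ITGA6 (ENSG00000091409, chromosome 2, 172427354 to 172506282, plus strand), the laminin receptor chain of hemidesmosomes and of basal epithelium, had 329, 342 and 263 CPM in DU145 GFP+ libraries, against 237, 280 and 222 CPM in DU145 GFP- libraries. GFP+ replicate 3 lay inside the GFP- range. The log2 fold change was 0.34 ± 0.11 (limma adjusted p = 0.0390), and 0.45 without GFP+ replicate 3. Of 27 alternatives, 12 kept this call. Among single libraries it was lost without DU145 GFP+ replicate 1 (0.147) or 2 (0.153), DU145 GFP- replicate 1 (0.118) or 3 (0.160), PC3 GFP+ replicate 1 (0.0540), 2 (0.0509) or 3 (0.0506) and PC3 GFP- replicate 1 (0.0524).

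The other 4 tested subunits did not pass in DU145. ITGA3 was at 646, 649 and 759 CPM in GFP+ libraries, against 597, 565 and 632 CPM in GFP- libraries, with no overlap and a log2 fold change of 0.19 ± 0.08 (limma adjusted p = 0.0982). Its call depended on the scaling, at 0.38 after quantile normalization (adjusted p = 0.000216) and 0.10 under equal medians (0.525). ITGB4, the beta chain that pairs only with alpha6, was at 18.6, 16.9 and 19.4 CPM in GFP+ libraries and 18.1, 14.0 and 23.5 CPM in GFP- libraries, and its groups overlapped throughout (0.01 ± 0.27, adjusted p = 0.975). ITGA2, the collagen receptor chain, had 13.7, 12.02 and 7.64 CPM in GFP+ libraries and 7.49, 10.7 and 8.92 CPM in GFP- libraries (0.27 ± 0.27, adjusted p = 0.457). ITGB3, a vitronectin receptor chain best known from platelets, had 1.17, 1.48 and 2.68 CPM in GFP+ libraries and 2.70, 2.74 and 2.14 CPM in GFP- libraries (-0.59 ± 0.29, adjusted p = 0.135). Only GFP+ replicate 3 overlapped the GFP- libraries of ITGB3, and without it the adjusted p was 0.0121.

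**Figure D2:**
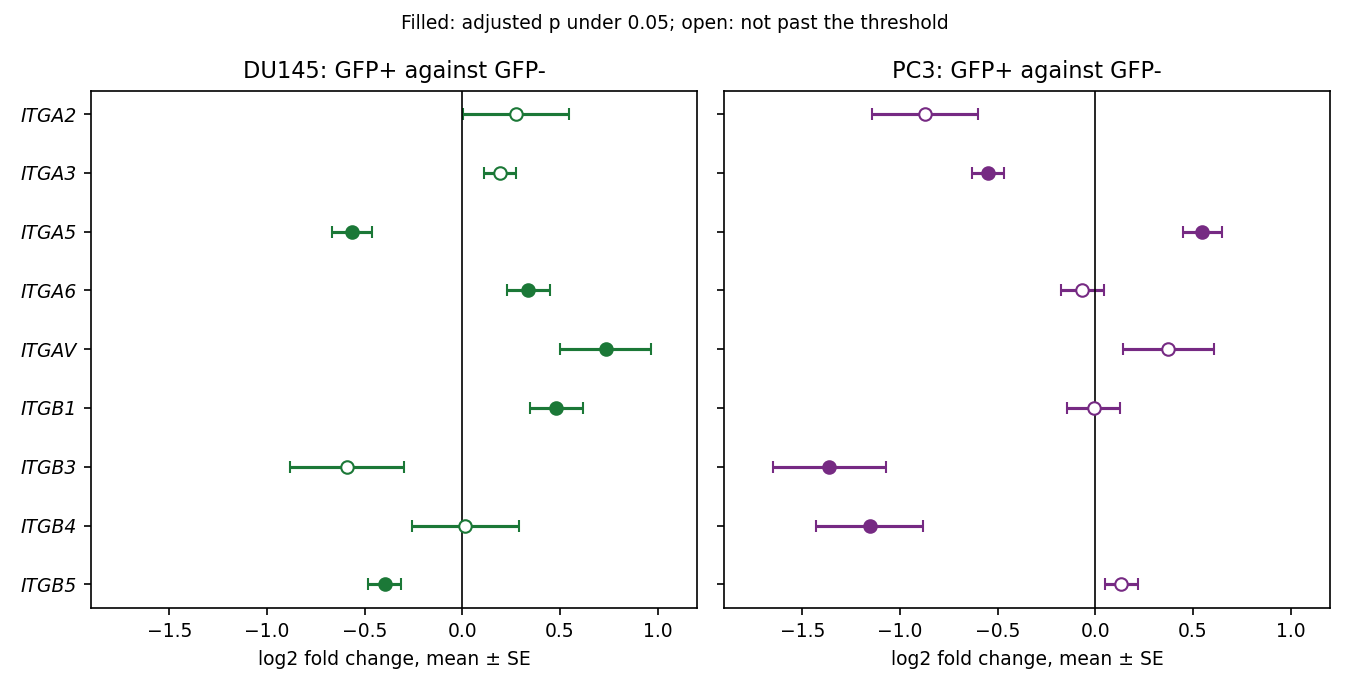
Log2 fold change of GFP+ against GFP- for the 9 tested subunits in each line, with bars of 1 standard error on either side and filled points where the limma adjusted p was under 0.05. ITGA5 lies at -0.56 in DU145 and at 0.55 in PC3.

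The DU145 fold changes of all genes followed the GC content of their transcripts. Across 12510 genes the Spearman rho was -0.63 (genes are not independent replicates), and the median log2 fold change ran from 0.50 in the fifth of genes poorest in GC to -0.26 in the richest. In PC3 the rho was -0.10. The subunits that were higher in DU145 GFP+ libraries were all poor in GC, with 38.3% for ITGAV, 40.0% for ITGB1 and 42.9% for ITGA6. The subunits that were lower, ITGA5 (54.5%) and ITGB5 (54.3%), were richer. After removal of this GC trend together with that in length, 3 of the 9 subunits passed in DU145. ITGAV (0.16, limma adjusted p = 0.266), ITGB1 (0.08, 0.352) and ITGA6 (0.00, 0.997) no longer passed. ITGA5 (-0.45, 0.000742) and ITGB5 (-0.27, 0.00299) still did, and ITGA3, with a GC content of 61.3%, passed as higher in GFP+ libraries (0.40, adjusted p = 3.73e-05). The part of GC content and library quality in these fold changes was not tested.

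**Figure D3:**
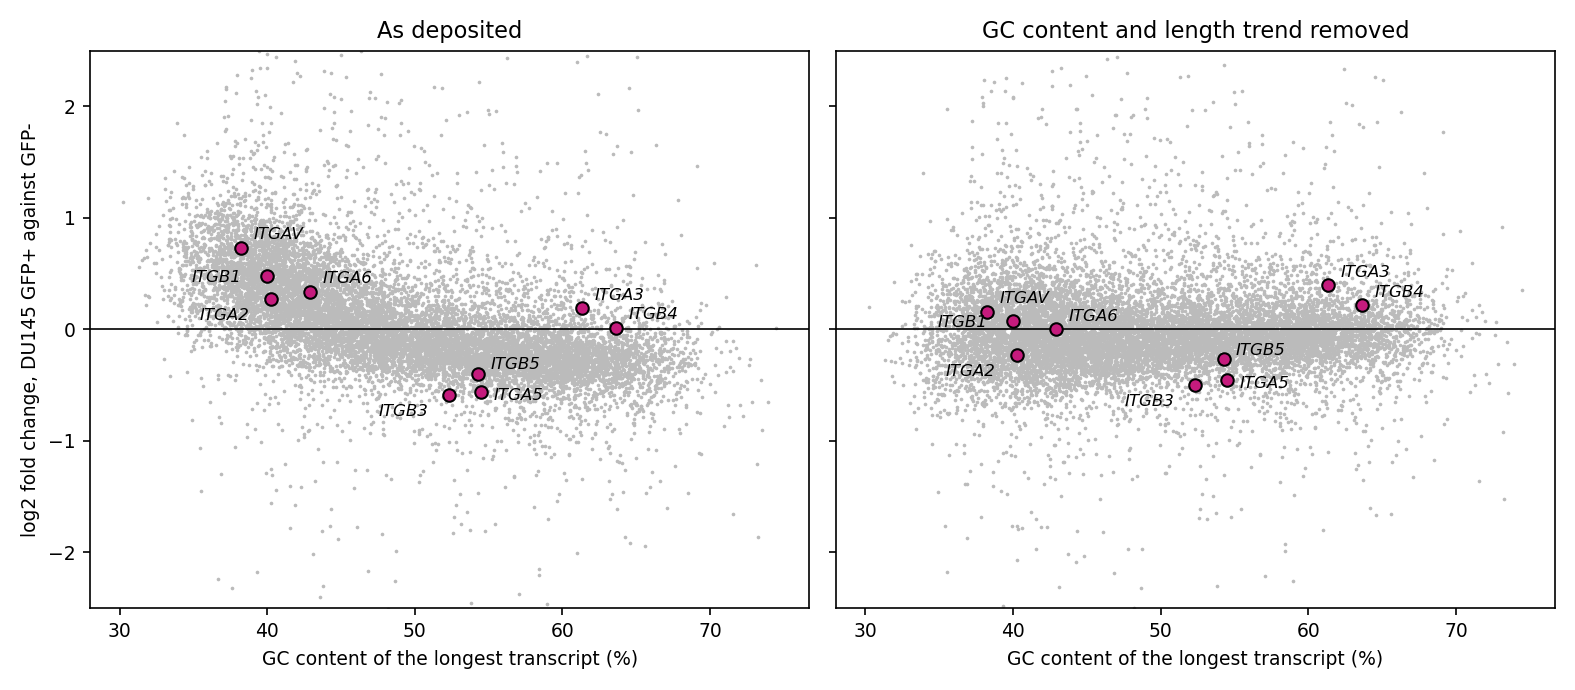
Log2 fold change in DU145 (GFP+ against GFP-) against the GC content of each gene's longest transcript in percent, as deposited (left) and with the trend removed (right); grey points are all tested genes with a GC value, genes beyond the axis limits are not drawn, and the tested subunits are named. ITGAV, ITGB1 and ITGA6 lie at 0.73, 0.48 and 0.34 on the left and at 0.16, 0.08 and 0.00 on the right, while ITGA5 and ITGB5 stay below 0 in both.

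In PC3, the GFP+ cells held more ITGA5 RNA and less RNA for the laminin receptor chain ITGA3, for ITGB3 and for ITGB4. These 4 of the 9 tested subunits passed, 1 higher and 3 lower, where 9.44% of all genes passed (4.17% higher, 5.27% lower). The libraries of the sorts did not overlap for 5 of the 9 subunits, against 30.4% of all genes. The fibroblast marker list summed to 2.98 to 3.75 CPM in PC3 GFP+ libraries, against 0.903 to 1.98 CPM in PC3 GFP- libraries. The excess was in COL3A1, which averaged 2.65 CPM in GFP+ and 0.0475 CPM in GFP- libraries. COL1A1 (0.647 against 1.10 CPM) and PDGFRB (0.151 against 0.283 CPM) averaged lower in GFP+ libraries. LUM and COL1A2 had 0 counts in both groups. The part of this list in the PC3 results was not tested.

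ITGA3 (ENSG00000005884, chromosome 17, 50055968 to 50090481, plus strand) stood at 599, 580 and 546 CPM in PC3 GFP+ libraries, against 814, 921 and 794 CPM in PC3 GFP- libraries. Every GFP+ library lay well below every GFP- library. The log2 fold change was -0.55 ± 0.08, a fold of 0.683 (limma adjusted p = 0.000927), and the call held in 27 of 27 alternatives, with a highest adjusted p of 0.0283. ITGA5 stood at 71.0, 76.2 and 77.7 CPM in PC3 GFP+ libraries, against 50.0, 59.6 and 45.2 CPM in PC3 GFP- libraries. Again no library overlapped. Its log2 fold change was 0.55 ± 0.10, a fold of 1.46 (limma adjusted p = 0.00392), and this call too held in 27 of 27 alternatives, with a highest adjusted p of 0.0250. Leaving out PC3 GFP- replicate 2, the library that stood apart, gave -0.48 for ITGA3 and 0.66 for ITGA5.

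ITGB3 (ENSG00000259207, chromosome 17, 47253846 to 47311816, plus strand) was low, at 2.28, 2.28 and 2.71 CPM in PC3 GFP+ libraries and 6.03, 5.44 and 7.32 CPM in PC3 GFP- libraries. The groups were clearly apart, and the log2 fold change was -1.36 ± 0.29 (limma adjusted p = 0.00974), or -1.46 without PC3 GFP- replicate 2. The call was lost after quantile normalization (adjusted p = 0.0586) and without both PC3 GFP- replicates 2 and 3 (0.156). ITGB4 (ENSG00000132470, chromosome 17, 75721328 to 75757818, plus strand) had 0.898, 1.21 and 0.629 CPM in PC3 GFP+ libraries and 1.83, 2.59 and 1.58 CPM in PC3 GFP- libraries. This rested on 55 estimated counts in all over the GFP+ libraries and 103 over the GFP- libraries. The log2 fold change of ITGB4 was -1.15 ± 0.27 (limma adjusted p = 0.0174). The call was lost without PC3 GFP+ replicate 1 (0.0526) or 3 (0.0708), without PC3 GFP- replicate 2 (0.0653), without both PC3 GFP- replicates 2 and 3 (0.176), with PC3 fitted alone (0.0839) and with voom on the estimated counts (0.109).

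The remaining PC3 subunits did not pass. ITGA2 (ENSG00000164171, chromosome 5, 52989326 to 53094779, plus strand) had 2.65, 1.96 and 3.10 CPM in GFP+ libraries, against 4.63, 3.54 and 6.003 CPM in GFP- libraries. Its groups did not overlap, at a log2 fold change of -0.87 ± 0.27 (limma adjusted p = 0.0613), and it passed without PC3 GFP- replicate 2 (0.0394) or DU145 GFP+ replicate 3 (0.0326). ITGAV had 89.9, 65.7 and 94.8 CPM in GFP+ libraries, against 73.5, 44.9 and 78.2 CPM in GFP- libraries, a log2 fold change of 0.37 ± 0.23 (adjusted p = 0.383). In both sorts of PC3 the lowest ITGAV library was replicate 2. With the GC and length trend removed, ITGAV passed in PC3 (0.36, adjusted p = 0.0154), as did ITGA2 (-0.90, 0.00211). ITGB1 (-0.01 ± 0.14, adjusted p = 0.981), ITGA6 (-0.07 ± 0.11, 0.794) and ITGB5 (0.13 ± 0.08, 0.395) overlapped between the PC3 sorts. ITGB6 (ENSG00000115221, chromosome 2, 160099666 to 160200313, minus strand), read from a fit to all genes of the table, had adjusted p-values of 0.728 in DU145 and 0.571 in PC3.

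The GFP effects of the lines were then compared directly, as the log2 fold change in DU145 minus that in PC3. ITGA5 and ITGB5 were more negative in DU145 and ITGA3 more positive, so 3 of 9 subunits passed, where 15.9% of all genes did (7.06% higher, 8.82% lower). The difference was -1.11 ± 0.14 for ITGA5 (limma adjusted p = 0.000344) and 0.74 ± 0.12 for ITGA3 (0.00145), and both held in 26 of 26 alternatives. For ITGB5 it was -0.53 ± 0.12 (adjusted p = 0.0107), and the call was lost without both DU145 GFP+ replicates 1 and 2 (0.130). ITGA5 was thus the subunit called in both lines, and it moved in opposite directions. Differences were not called for ITGB4 (1.17 ± 0.39, adjusted p = 0.0563), ITGA2 (1.14 ± 0.38, 0.0581), ITGA6 (0.40 ± 0.16, 0.0921), ITGB1 (0.49 ± 0.19, 0.0988), ITGB3 (0.77 ± 0.41, 0.203) or ITGAV (0.36 ± 0.33, 0.462). Without DU145 GFP+ replicate 3 those of ITGA2 (0.0144), ITGA6 (0.0145) and ITGB1 (0.0156) passed. Without PC3 GFP- replicate 2 they passed as well, ITGA2 at 0.0227, ITGA6 at 0.0371 and ITGB1 at 0.0214. ITGA6 also passed without DU145 GFP- replicate 2 (0.0438), and ITGB4 without PC3 GFP+ replicate 2 (0.0378) or with the GC and length trend removed (0.0144).

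Set against the other alpha chains per kb, the weight of ITGA5 shifted between the sorts in opposite directions in the lines. ITGA5 made up 12.5% ± 0.936 of the 5 alpha chains' CPM per kb in DU145 GFP+ and 20.1% ± 0.813 in DU145 GFP- libraries, and 10.2% ± 0.730 in PC3 GFP+ and 5.44% ± 0.491 in PC3 GFP- libraries (SD, n = 3 each). ITGA3 was the main alpha chain throughout, with 57.3% ± 4.25 in DU145 GFP+, 54.7% ± 2.43 in DU145 GFP-, 71.5% ± 2.11 in PC3 GFP+ and 81.2% ± 2.29 in PC3 GFP- libraries. The ITGA5 shares of the sorts did not overlap in either line, and the ITGA3 shares did not overlap in PC3. The ratio of ITGA5 to ITGA3, per kb, was 0.218 ± 0.00831 in DU145 GFP+ and 0.368 ± 0.00233 in DU145 GFP- libraries, and 0.143 ± 0.0132 in PC3 GFP+ and 0.0669 ± 0.00431 in PC3 GFP- libraries. ITGA6 contributed 25.5% ± 3.87 in DU145 GFP+ and 22.0% ± 2.95 in DU145 GFP-, but 9.91% ± 0.535 in PC3 GFP+ and 8.09% ± 1.10 in PC3 GFP- libraries. Among the beta chains, ITGB1 made up 70.5% ± 5.74 in DU145 GFP+ and 57.0% ± 4.88 in DU145 GFP- libraries, and 70.6% ± 1.07 in PC3 GFP+ and 72.0% ± 4.88 in PC3 GFP- libraries. ITGB5 held most of the rest, with 27.7% ± 5.36 in DU145 GFP+, 40.8% ± 4.33 in DU145 GFP-, 28.9% ± 1.09 in PC3 GFP+ and 26.9% ± 4.85 in PC3 GFP- libraries. An exact permutation test of 3 against 3 libraries cannot reach the 0.05 threshold, so none was run on shares or ratios.

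**Figure D4:**
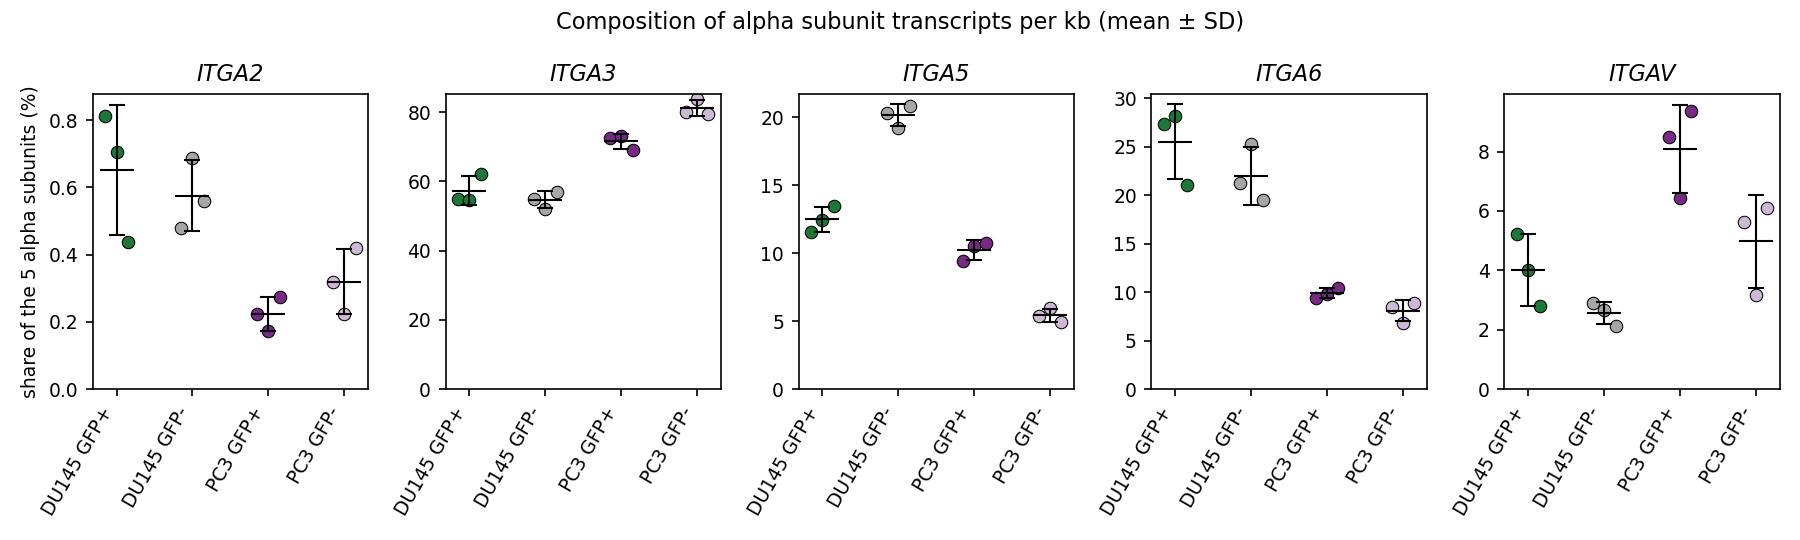
Share of each alpha chain in the summed CPM per kb of the 5 alpha chains, in percent, with 1 point per library and the mean ± SD of each group; each panel has its own axis from 0. The ITGA5 share is lower in DU145 GFP+ than in DU145 GFP- and higher in PC3 GFP+ than in PC3 GFP-.

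Between the lines, with the mean of both sorts of DU145 set against that of PC3, the hemidesmosome chains ITGB4 and ITGA6 had the largest fold changes of the 9 tested subunits. Of the 9 subunits, 7 passed (5 higher and 2 lower in DU145), where 77.5% of all genes did (38.3% higher, 39.2% lower), and 4 of 9 did not overlap, against 46.9% of all genes. ITGB4 averaged 18.4 ± 3.14 CPM in DU145 and 1.46 ± 0.709 CPM in PC3 libraries (SD, n = 6 each), a fold of 13.9 (log2 3.79 ± 0.19, limma adjusted p = 8.06e-10). ITGA6, its partner, averaged 279 ± 48.6 CPM in DU145 and 83.7 ± 5.53 CPM in PC3 libraries, a fold of 3.30 (limma adjusted p = 2.34e-10). ITGA2 (log2 fold change 1.52 ± 0.19) and ITGA5 (1.41 ± 0.07) were also higher in DU145, and each of these 4 genes was above every PC3 library in every DU145 library. ITGB5 was higher by less (0.32 ± 0.06). ITGB3 (-0.92 ± 0.21) and ITGAV (-0.65 ± 0.16) were lower in DU145 than in PC3, with overlapping libraries. These 7 calls held in each alternative that kept the gene (23 or 24). ITGA3 (-0.12 ± 0.06, limma adjusted p = 0.0737) and ITGB1 (-0.12 ± 0.10, 0.281) did not pass, and their calls depended on the scaling. Under equal medians both were slightly positive (0.02 and 0.03), where the median of all genes was 0.13, against -0.01 as deposited. After quantile normalization ITGA3 (-0.35, limma adjusted p = 3.24e-07) and ITGB1 (-0.34, 0.0242) both passed as lower in DU145. Both passed with arrayWeights too (0.000500 and 0.0323), and, at the deposited values, with the GC and length trend removed within each line (0.00205 and 0.0134). As deposited, ITGA3 passed without DU145 GFP+ replicate 3 (0.0160) or PC3 GFP- replicate 3 (0.0490). The order of the groups differed by gene. ITGA5 was highest in DU145 GFP-, then DU145 GFP+, PC3 GFP+ and PC3 GFP-, with no overlap between neighbours. ITGA3 was highest in PC3 GFP-, then DU145 GFP+, and its next neighbours DU145 GFP- and PC3 GFP+ overlapped. With 1 line on each side, this comparison describes these libraries only.

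Among the other genes of integrin adhesion, some ligands and partners also differed between the sorts. The shares of called genes in each list stand beside 27.1% of all genes in DU145 and 9.44% in PC3. Of 16 further integrin subunits, 7 were tested, of which 1 rose and 2 fell in DU145 (42.9% called) and 0 passed in PC3 (median log2 fold change -0.22 in DU145 and -0.10 in PC3, beside -0.01 and -0.02 over all genes tested). ITGA1, another collagen receptor chain, averaged 2.30 ± 0.451 CPM in DU145 GFP+ and 0.239 ± 0.190 CPM in DU145 GFP- libraries (log2 fold change 3.55 ± 0.48, limma adjusted p = 0.000659). In PC3 it averaged 1.57 ± 0.119 CPM in GFP+ and 2.17 ± 0.836 CPM in GFP- libraries (adjusted p = 0.697), and the difference between the lines passed (3.96 ± 0.69, adjusted p = 0.00243). ITGA1 counts were fractional in 7 libraries. Of 26 tested matrix ligands, 8 rose and 2 fell in each line (38.5% called, against 27.1% of all genes in DU145 and 9.44% in PC3), with medians of 0.05 in DU145 and 0.08 in PC3. The basement membrane collagen chain COL4A2 averaged 65.4 ± 1.58 CPM in PC3 GFP+ and 10.1 ± 1.51 CPM in PC3 GFP- libraries (limma adjusted p = 3.21e-09), and the laminin chain LAMB1 averaged 57.8 ± 2.13 CPM in PC3 GFP+ and 7.44 ± 1.30 CPM in PC3 GFP- libraries (4.38e-08). In DU145 COL4A2 went the other way, at 327 ± 27.8 CPM in GFP+ and 400 ± 22.9 CPM in GFP- libraries (log2 fold change -0.29 ± 0.10, limma adjusted p = 0.0460). This DU145 call was lost with no expression minimum, after quantile normalization and by eBayes without trend. The GFP effects on COL4A2 differed between the lines (-2.99 ± 0.14, limma adjusted p = 7.72e-08). LAMB1 was called higher in DU145 as well (0.47 ± 0.15, adjusted p = 0.0355). HSPG2, the basement membrane proteoglycan perlecan, rose in both lines, by 2.17 ± 0.08 in DU145 and 0.63 ± 0.08 in PC3 on the log2 scale. Its counts were fractional in 8 libraries.

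Laminin-332 is the ligand of alpha3 with beta1 and of alpha6 with beta4. Its chain LAMB3 averaged 2.37 ± 0.541 CPM in DU145 GFP+ and 13.0 ± 1.48 CPM in DU145 GFP- libraries (log2 fold change -2.47 ± 0.18, limma adjusted p = 4.26e-06). In PC3 it averaged 31.2 ± 1.48 CPM in GFP+ and 20.3 ± 2.61 CPM in GFP- libraries (0.63 ± 0.18, limma adjusted p = 0.0423). The PC3 call was lost with no expression minimum, under equal medians, after quantile normalization and by eBayes without trend. It was also lost without DU145 GFP- replicate 1 or 3, PC3 GFP+ replicate 1, 2 or 3, PC3 GFP- replicate 1 or 3, or both PC3 GFP- replicates 2 and 3. The difference in the GFP effect on LAMB3 between the lines was -3.10 ± 0.25 (limma adjusted p = 8.38e-06). LAMA3, the alpha chain of the same laminin, went the other way. It averaged 5.49 ± 0.700 CPM in DU145 GFP+ and 3.23 ± 0.293 CPM in DU145 GFP- libraries (0.76 ± 0.23, limma adjusted p = 0.0312), and 1.58 ± 0.120 CPM in PC3 GFP+ and 2.68 ± 0.613 CPM in PC3 GFP- libraries (-0.74 ± 0.23, adjusted p = 0.0624). The LAMA3 difference between the lines was 1.501 ± 0.33 (adjusted p = 0.00919), and it was lost without both DU145 GFP+ replicates 1 and 2 or both PC3 GFP- replicates 2 and 3 (highest adjusted p 0.0861). Of the 7 hemidesmosome genes, 1 rose and 2 fell in DU145 (42.9% called, against 27.1% of all genes), and 1 rose and 0 fell in PC3 (14.3%, against 9.44%), with medians of -0.25 and 0.13.

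Inside the cell, 35 genes of integrin activation and of the adhesion plaque were tested. In DU145, 5 rose and 12 fell (48.6% called, against 27.1% of all genes; median -0.17), and in PC3, 2 rose and 7 fell (25.7%, against 9.44%; median -0.06). TLN1, the talin that links beta tails to actin and activates integrins, averaged 985 ± 46.6 CPM in DU145 GFP+ and 1541 ± 116 CPM in DU145 GFP- libraries (log2 fold change -0.64 ± 0.07, limma adjusted p = 0.000197). TNS3, a tensin that binds beta tails, averaged 144 ± 2.0001 CPM in DU145 GFP+ and 189 ± 4.03 CPM in DU145 GFP- libraries, and 68.1 ± 3.57 CPM in PC3 GFP+ and 43.2 ± 0.876 CPM in PC3 GFP- libraries. It therefore moved in opposite directions, as ITGA5 did, and the difference passed (-1.05 ± 0.09, limma adjusted p = 1.34e-05). The paxillin relative TGFB1I1 fell in PC3 (-1.06 ± 0.12, adjusted p = 0.000106). Of the 5 integrin inactivators, 0 passed in DU145 and 1 fell in PC3, SHARPIN (-0.61 ± 0.13, adjusted p = 0.0106), a call lost without both PC3 GFP- replicates 2 and 3 (0.0551). Of 16 tetraspanin and trafficking genes, 3 rose and 1 fell in DU145 (25.0% called, against 27.1% of all genes), and 0 rose and 1 fell in PC3 (6.25%, against 9.44%), shares that did not exceed those of all genes, with medians of 0.04 and -0.14. The gene that fell in both lines was the tetraspanin CD9, by 0.56 in DU145 and by 0.69 in PC3 on the log2 scale. RASA1, a GTPase-activating protein that binds alpha tails during integrin recycling, rose in DU145 (0.80 ± 0.17, limma adjusted p = 0.00767). Its counts were fractional in 11 libraries, so its values are less certain. Without both DU145 GFP+ replicates 1 and 2 the DU145 calls of TNS3 (0.0653), CD9 (0.0717) and RASA1 (0.320) were lost.

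Of 4 tested genes for latent TGF-beta that alphaV integrins bind, 0 rose and 1 fell in DU145 (25.0% called, against 27.1% of all genes), and 1 rose and 1 fell in PC3 (50.0%, against 9.44%), with medians of -0.06 and 0.02. The gene that rose in PC3 was LTBP1, another binder of latent TGF-beta. It averaged 0.380 ± 0.179 CPM in PC3 GFP+ and 0.0661 ± 0.0635 CPM in PC3 GFP- libraries (limma adjusted p = 0.00691). LTBP1 reached the expression minimum only through DU145, at 4.07 ± 0.419 CPM in GFP+ and 3.68 ± 0.854 CPM in GFP- libraries. Its PC3 GFP- mean lay below what a count of 0 allows in those libraries (0.167 to 0.179 CPM). The PC3 share of 50.0% includes this call. The LTBP1 call was lost with each line fitted alone and with an offset of 8 counts (highest adjusted p 0.187). LTBP3, which tethers latent TGF-beta, was called lower in both lines, at -0.57 ± 0.15 in DU145 (limma adjusted p = 0.0195) and -0.64 ± 0.15 in PC3 (0.0171). The LTBP3 call in PC3 was lost without PC3 GFP+ replicate 1 or 2 or PC3 GFP- replicate 1 or 2, with a highest adjusted p of 0.121 over all alternatives. In DU145 the calls of ITGA10, ITGB8, COL4A2, LAMB1, LTBP3, PLEC, LAMA3, RAB5A and CLTC were each lost without GFP+ replicate 2 and without GFP- replicate 3. Their highest limma adjusted p over all alternatives ran from 0.141 (ITGB8) to 0.859 (PLEC). The DU145 calls of COL4A2, PLEC, LAMA3, RAB5A and CLTC were also lost with the GC content and length trend removed. Counts of called genes in the lists were taken at the deposited values only, without removal of that trend.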

How the data were processed

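RNA sequencing of 12 libraries was analysed in the 4 groups given by the labels. Per the submitters' processing notes STAR and DESeq2 were used, with no version. For the genome build and the way reads were counted, nothing is given in the sources used here. The authors deposited log2 values, per the labels log2 normalized counts. Each column's lowest value and steps match log2 CPM with an offset of 0.5 counts, and undoing this gave estimated counts, 86.9% of them whole within 0.01 in the median library. CPM values here include that offset.

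Differences were tested on the deposited log2 values with limma 3.58.1 in R 4.3.3 (4 group means, 8 residual degrees of freedom, eBayes with trend, two-sided, Benjamini-Hochberg adjusted over 12527 genes, threshold 0.05). Tested genes had a log2 value of at least 0, that is 1 CPM, in at least 3 of the 12 libraries. ITGB6 was read from a fit to all genes. The fit was tested on simulated data. Gene positions on GRCh38, transcript lengths and GC content were taken from GENCODE 29, and promoter windows from RefSeq on GRCh38.p14.

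The subunits are those of a fixed symbol list, and up to 4 genes per pathway list with the smallest adjusted p were named, of which 1 is not reported here. Members and lists were chosen with earlier results of these data known. Alternatives covered the minimum, scaling, offset, variance model, replicate block, GC and length trend and left-out libraries. The expression minimum here is set on the CPM scale. Total estimated counts limit precision for ITGB3, ITGB4 and ITGB6, and intervals or limits from counts cover counting error only.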

Additional observations from a re-analysis of the deposited data

Results flagged for a closer look

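The GFP effect differed between DU145 and PC3 for 3 subunits by a test of the difference itself, as the log2 fold change of GFP+ against GFP- in DU145 minus that in PC3 (limma, Benjamini-Hochberg adjusted over all genes tested). For ITGA5, the fibronectin receptor chain, the difference was -1.11, with -0.56 in DU145 and 0.55 in PC3. For ITGA3, a laminin receptor chain, it was 0.74, with 0.19 in DU145, which did not pass alone, and -0.55 in PC3. For ITGB5, a partner of alphaV, it was -0.53, with -0.40 in DU145 and 0.13 in PC3, which did not pass alone.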

How the results depend on the processing

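Replicate numbers are shared by the sorts of a line, and the labels do not say whether they pair the libraries. Same-numbered deviations correlated at -0.02, 0.09 and 0.21 in DU145 and 0.06, 0.20 and 0.15 in PC3. With 3 libraries per group these values cannot settle whether the libraries were paired. In PC3 each library correlated best with its own number, as a hint from the data and not the design. In DU145 replicate 1 of both sorts and GFP- replicate 2 did not. With the replicate block, 6 subunits and 4842 genes passed in DU145, 6 and 1551 in PC3, and 7 and 3321 for the difference between the GFP effects. The subunits gained were ITGA3 in DU145 (limma adjusted p = 0.0422), ITGAV (0.0274) and ITGA2 (0.0238) in PC3, and ITGA2, ITGA6, ITGB1 and ITGB4 for the difference.

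Counts of subunits called in DU145 (5) became 2 by eBayes without trend, 8 with arrayWeights, 3 with the GC content and length trend removed, with or without the replicate block, 0 without both DU145 GFP+ replicates 1 and 2, and 2 to 6 leaving out 1 library. In PC3 (4) they became 7 with arrayWeights and with trend removal plus replicate block, 2 without both PC3 GFP- replicates 2 and 3, and 3 to 5 leaving out 1 library. For the difference (3) they became 9 with arrayWeights and 3 to 6 leaving out 1 library. Between the lines 7 of 9 passed, 9 after quantile normalization, with arrayWeights and with trend removal, 5 of 7 at a minimum of 16 CPM, 8 without both DU145 GFP+ replicates, and 7 or 8 leaving out 1 library. Over all genes, DU145 (3389) gave 2252 after quantile normalization, 8122 with arrayWeights, 170 without both GFP+ replicates 1 and 2, and from 896 (without GFP+ replicate 1) to 5597 (without GFP+ replicate 3). PC3 (1182) gave 5676 with arrayWeights, 2402 with trend removal, 2648 with the block added, 410 without both GFP- replicates 2 and 3, and from 660 (without GFP+ replicate 1) to 1492. The difference (1990) gave 7936 with arrayWeights, 3099 with trend removal, 3578 with the block added, 649 without both DU145 GFP+ replicates, 1188 without both PC3 GFP- replicates, and 1145 to 3661 leaving out 1 library. Calls split differently under equal medians, with 1313 genes higher and 2305 lower in DU145 (1647 and 1742 as deposited), 509 and 412 in PC3 (522 and 660), and 626 and 1428 for the difference (885 and 1105). With trend removal the splits were 837 and 1939 in DU145, 1385 and 1017 in PC3, and 1032 and 2067 for the difference. The causes were not tested.

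Signs turned only in values that had not passed. In DU145, ITGA2 was -0.23 with trend removal, with or without the block, and -0.23 without both GFP+ replicates 1 and 2. There ITGB3 was 0.0917 and ITGB6 was 1.26 (from -1.96 to 0.42 leaving out 1 library, with 0.14 without GFP+ replicate 1). ITGB4 in DU145 was -0.0794 with equal medians, -0.12 after quantile normalization, -0.11 with arrayWeights, -0.03 without GFP+ replicate 3 and -0.17 without GFP- replicate 2. In PC3, ITGB1 was 0.0293 with equal medians and from -0.14 to 0.0943 leaving out 1 library. For the difference, ITGAV was -0.21 with trend removal, with or without the block, and -0.0837 without both DU145 GFP+ replicates, where ITGB6 was 0.0173. Between the lines, equal medians gave 0.0221 for ITGA3 and 0.0274 for ITGB1, and ITGB6 was 0.23 with an offset of 8 counts, 0.55 without both DU145 GFP+ replicates and from -0.97 to 0.22 leaving out 1 library. Equal medians moved the median difference over all genes to -0.08, against 0.05 as deposited. Low counts limit ITGB3, ITGB4 and ITGB6, and a lone library left in a group is assumed to vary like the others.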

Other observations

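Levels per kb of partner chains can be set side by side within a library, as a description with no test. The ratio of ITGA6 to ITGB4, the chains of the hemidesmosome receptor, was 18.1 ± 3.55 in DU145 GFP+ and 14.9 ± 5.70 in DU145 GFP- libraries, and 102 ± 36.8 in PC3 GFP+ and 47.7 ± 14.96 in PC3 GFP- libraries (SD, n = 3 each). ITGB4 thus had far less RNA than its only alpha partner in every group, and the ratio was lower in each DU145 library than in any PC3 library. The ratio of ITGAV to ITGB5 was 0.165 ± 0.0597 in DU145 GFP+ and 0.0725 ± 0.0123 in DU145 GFP- libraries, and 0.231 ± 0.0521 in PC3 GFP+ and 0.201 ± 0.0675 in PC3 GFP- libraries. ITGB5 RNA exceeded that of its alpha partner in all 12 libraries.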
